A study of Drosophila melanogaster with 4 samples.

Results

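Ribosomal proteins that Drosophila melanogaster encodes in duplicate were followed in RNA from adult ovaries. The genes described are the 8 members of 4 paralog pairs, out of 16356 genes named in the deposited table: RpS19b and RpS19a, RpL22-like and RpL22, RpS10a and RpS10b, and RpL37-2 and RpL37-1. They were chosen by name, and the 17 RefSeq transcript rows that belong to them were summed per gene.

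Poly(A)-enriched RNA came from 2 libraries of ovaries in which the nucleoporin Nup358 was knocked down in the germline, labelled Nup358GLKD, and from 2 libraries labelled Control, whose cross is given as mat>Luc. Each library was made from the pooled ovaries of 10 to 15 adult flies, and the labels call the libraries of a group biological repeats without naming separate crosses. A p-value here reflects the spread among these libraries, which may be technical in part. The labels give neither the age of the flies nor the knockdown construct, so anything else the 2 crosses share or differ in is not known here. Whole ovaries hold somatic follicle and sheath cells beside the germline, and the knockdown is labelled as germline only.

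A eukaryotic ribosome carries a single copy of most ribosomal proteins. Where a genome holds 2 genes for such a protein, their products compete for a single place in the subunit. In flies the ubiquitous copy is often a Minute gene, whose loss of one allele slows growth, while the second copy is active in few tissues. RpS19b is known from germline stem cells and early cysts and is silenced as the oocyte forms. RpL22-like, RpS10a and RpL37-2 are known mainly from the testis. These 4 are called the restricted copies here, and RpS19a, RpL22, RpS10b and RpL37-1 their partners. RpS10 and RpS19 belong to the small subunit, and RpL22 and RpL37 to the large subunit.

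The libraries held 58876800 and 60707552 expected counts in Nup358GLKD, against 60792292 and 59410221 in Control. Nup358 itself had 282.7 and 151.3 CPM, counts relative to the scaled library size, in the Nup358GLKD libraries and 662.2 and 624.3 CPM in the Control libraries, 2.96-fold lower, with an adjusted p of 0.0524 by edgeR's quasi-likelihood test, above the 0.05 threshold, and of 0.000181 by DESeq2. The knockdown libraries resembled each other less than the Control libraries did: the SD of log2 differences between replicates was 0.658 in Nup358GLKD and 0.192 in Control, over features with a mean of at least 5 CPM. Every result below therefore rests on 2 knockdown libraries that differ from each other.

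The pairs share a layout that their choice by name did not use. In the reference annotation all 4 partners lie on the X chromosome, and 0 of 4 restricted copies do. RpS19b and RpS10a lie on 3R, and RpL22-like and RpL37-2 on 2R. Of 69 single-copy ribosomal protein genes, 6 are on the X. Of 11 members of other duplicated ribosomal protein families, 4 are. Among them are RpS15Aa and RpS28b, whose less abundant copies RpS15Ab (2R), RpS28a (3R) and RpS28-like (2L) are autosomal, the same layout. RpS14a and RpS14b are both on the X. The abundant RpL10Ab (3L), RpL34a and RpL34b (both 3R) are not. RpS10a and RpL37-2 each have 1 exon, against 3 exons each in RpS10b and RpL37-1. The canonical transcript of RpL22-like has 2 exons, against 3 in RpL22. RpS19b keeps 3, as does RpS19a. Coding lengths within a pair are close: 465 bases in RpS19b and 468 in RpS19a, 936 in RpL22-like and 897 in RpL22, 489 in RpS10a and 480 in RpS10b, and 267 in RpL37-2 and 279 in RpL37-1.

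In both groups the 4 partners were abundant and the 4 restricted copies were rare. Per kilobase of coding sequence, RpL37-1 stood highest with levels of 6970 and 5290 CPM in the Nup358GLKD libraries and 3000 and 3020 CPM in the Control libraries. RpS10b came next with 4050 and 3090 CPM per coding kilobase in Nup358GLKD and 2140 and 2230 in Control. RpS19a followed with 3740 and 2910 in Nup358GLKD and 1900 and 1900 in Control. On this scale RpL37-1 stood apart from the next genes in both groups, while RpS10b and RpS19a overlapped in the knockdown and not in Control. The place of RpL37-1 depends on division by coding length, which leaves out untranslated sequence. In plain CPM it had 1944 and 1477 in Nup358GLKD, against 1943 and 1483 for RpS10b. In Control it had 836.7 and 843.4 CPM, below RpS10b (1026 and 1069) and RpS19a (889.6 and 889.6). RpL22 had 1850 and 997 in Nup358GLKD and 1040 and 918 in Control. Per coding kilobase RpL22 stood below the other partners in every library. The restricted copies were far lower on this scale. RpS19b had 10.1 and 2.79 CPM per coding kilobase in Nup358GLKD and 1.61 and 1.71 in Control. RpS10a, RpL37-2 and RpL22-like were below 1 in every library.

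**Figure D1:**
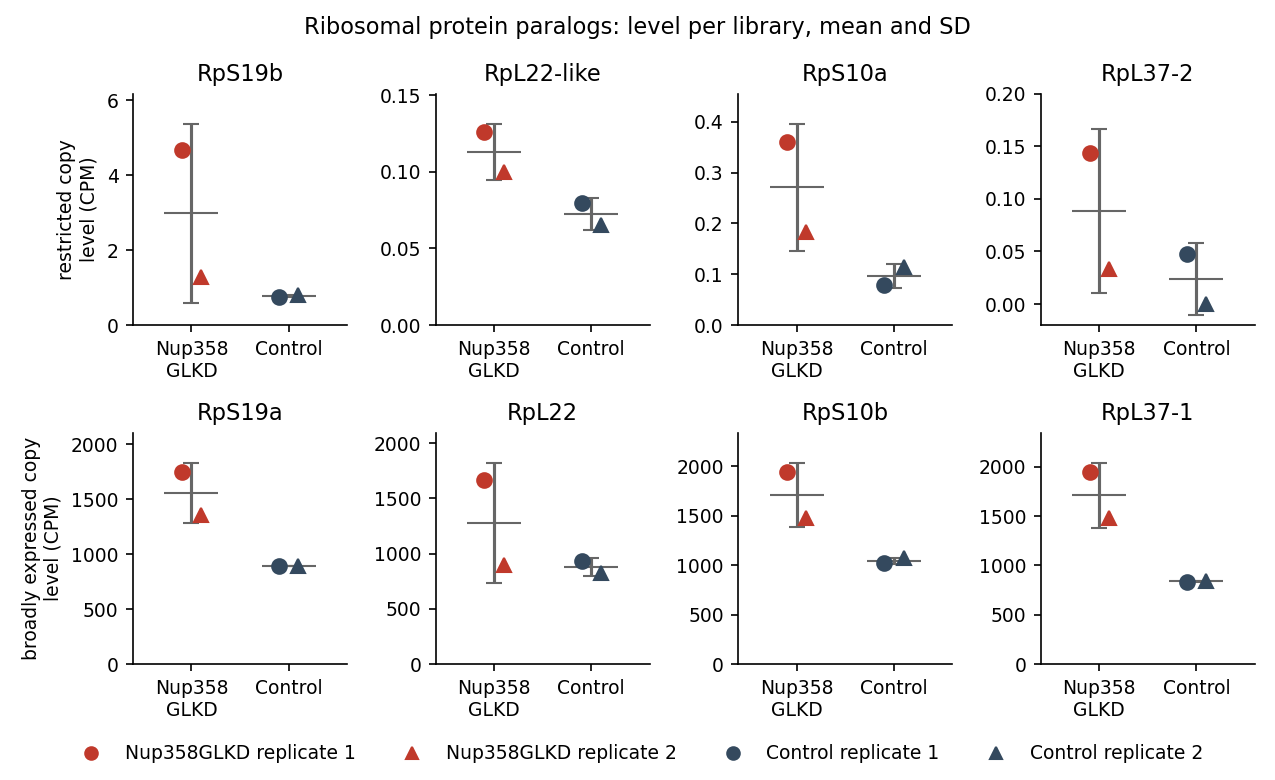
Level of each paralog in CPM, with the restricted copies in the upper row and their partners in the lower row. Points are single libraries, circles replicate 1 and triangles replicate 2, horizontal lines are means and bars are 1 SD (n = 2 per group). Each panel has its own linear axis. Apart from RpL22 and RpL37-2, every gene has both Nup358GLKD libraries above both Control libraries, as do 37.9% of all features tested. RpL22-like was not tested and rests on 7 and 6 counts in Nup358GLKD and 5 and 4 in Control. RpS10a was tested only through its knockdown counts.

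Across the members, RNA levels were higher in the knockdown, but few differences passed the test. Of the 8 genes, 6 had enough counts to be tested, and RpS10a was among them only through its counts in the knockdown libraries. A single gene, RpL37-1, passed the threshold and was higher in Nup358GLKD. Over all 10191 features tested, 9.59% were called higher and 18.6% in either direction, and 1 of 6 is close to what that background gives. An unadjusted p under 0.05 was found for 3 of the 6, against 45.2% of all features. Both Nup358GLKD libraries stood above both Control libraries in 5 of the 6 tested members, against 37.9% of all features. RpS10a is 1 of these 5, and its entry through the knockdown counts favoured that place. The median log2 change was 0.92 over the 6 tested genes, RpS10a included, and 0.01 over all features. Nup358GLKD replicate 1 was above replicate 2 in 6 of 6, against 49.2% of all features. DESeq2 called 4 of the 6 higher, with 19.0% of all features called higher by that tool: RpS19a, RpS19b, RpS10b and RpL37-1.

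In a bulk sample, more RNA of a gene per cell and more cells that express it cannot be told apart. The markers of cell types moved as follows, where 9.59% of all features were called higher and 9.03% lower by edgeR, and 19.0% higher by DESeq2. Germline markers summed to 9402 and 8644 CPM in the Nup358GLKD libraries and 5594 and 5653 CPM in the Control libraries, and 5 of 14 tested rose, among them zpg, which encodes a germline gap junction protein, at 2.2-fold with an adjusted p of 0.0279 by edgeR. The oocyte mRNA regulators orb and bru1 rose 2.69-fold and 2.13-fold, with adjusted p of 0.0292 and 0.031. Log2 changes of the 14 germline markers ran from -1.21 to 1.43. Both Nup358GLKD libraries stood above both Control libraries in 10 of them and below in 1, against 37.9% and 39.8% of all features. Follicle cell markers summed to 18330 and 25550 CPM in Nup358GLKD and 24160 and 24460 CPM in Control. By edgeR 1 of 16 was higher, the early follicle cell adhesion gene Fas3 (3.25-fold, adjusted p 0.0273). The yolk protein gene Yp3 was the 1 lower (log2 change -1.53, adjusted p 0.0401). DESeq2 called 6 of the 16 higher and 1 lower, and 7 of the germline markers higher and 0 lower. Log2 changes of the 16 follicle cell markers ran from -1.53 to 1.94. Their median was 0.65, against 0.71 for the germline markers. Both Nup358GLKD libraries stood above both Control libraries in 8 of the 16 and below in 3. Muscle sheath markers summed to 2017 and 917.9 CPM in Nup358GLKD and 829.9 and 771.9 CPM in Control, with 0 of 8 passing the edgeR test at an adjusted or an unadjusted threshold and 4 passing by DESeq2. Fat body markers summed to 39.52 and 57.15 CPM in Nup358GLKD and 15.62 and 11.38 CPM in Control. By edgeR 2 of 6 were higher: the larval storage protein gene Lsp2 (34.0-fold, adjusted p 0.0279) and Fbp1 (7.31-fold, adjusted p 0.0476). Fbp1 had 58 and 108 counts in Nup358GLKD and 7 and 17 in Control. Its entry into the test drew on its knockdown counts, which favoured a call as higher. Log2 changes of the 6 fat body markers ran from -0.83 to 5.09, with 4 above and 1 below both Control libraries in both knockdown libraries. No defining gene of these 4 lists was at 0 in all libraries. The part of these shifts in the paralogs' levels was not tested.

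**Figure D2:**
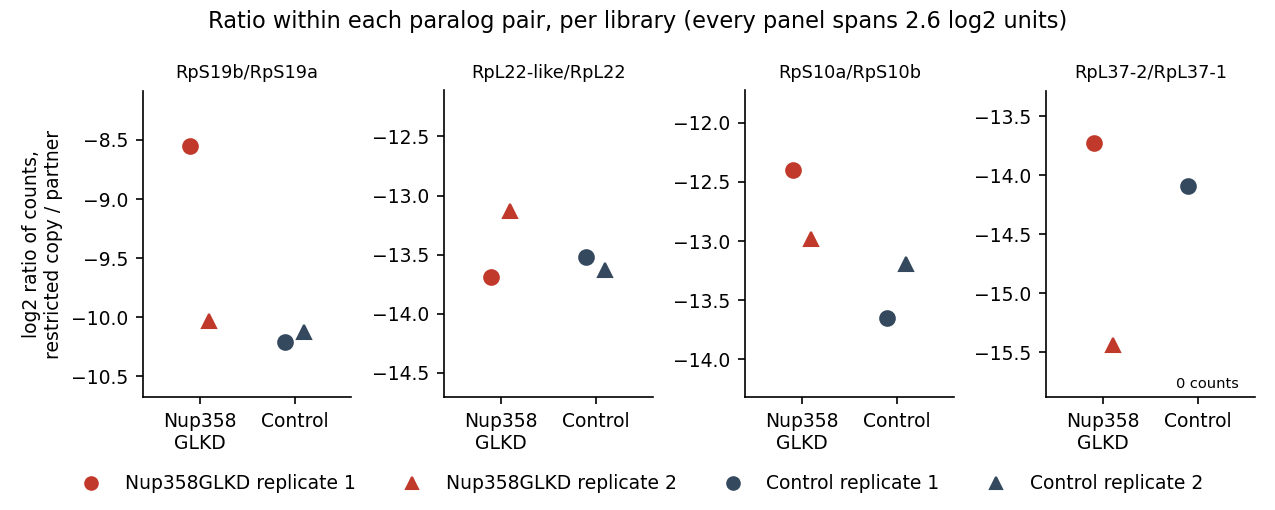
Log2 ratio of counts, restricted copy over partner, in each library, for the 4 pairs. Every panel spans the same number of log2 units, and RpL37-2 had a count of 0 in Control replicate 2. The RpS19b to RpS19a ratio stands apart in Nup358GLKD replicate 1, and the RpL22-like to RpL22 ratios overlap between the groups.

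The RpS19 pair was almost entirely RpS19a, and the rare RpS19b was highest in one knockdown library. RpS19 takes part in maturation of the small subunit. RpS19a had 1751 and 1361 CPM in the Nup358GLKD libraries and 889.6 and 889.6 CPM in the Control libraries. The groups did not overlap, and the log2 difference was 0.81 (SE 0.17) with an adjusted p of 0.0513 by edgeR and 0.00126 by DESeq2, a fold of 1.75. RpS19b had 260 and 78 counts in Nup358GLKD and 47 and 49 counts in Control, which is 4.674 and 1.296 CPM in Nup358GLKD and 0.7502 and 0.7966 CPM in Control. Both knockdown values lay above both Control values, and replicate 1 lay well above replicate 2. The fold of 3.86, a log2 difference of 1.94 (SE 0.74), had an adjusted p of 0.121 by edgeR and 0.0334 by DESeq2. Leaving out Nup358GLKD replicate 1 gave a log2 difference of 0.74, and leaving out replicate 2 gave 2.56.

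RpS19b made up 0.266% and 0.0951% of the pair's counts in the Nup358GLKD libraries and 0.0843% and 0.0895% in the Control libraries. The Clopper-Pearson intervals were 0.235 to 0.301% and 0.0752 to 0.119% in Nup358GLKD, and 0.0619 to 0.112% and 0.0662 to 0.118% in Control. These intervals cover counting error only, and the knockdown libraries differed far beyond it. The share was highest in Nup358GLKD replicate 1, and those of the other 3 libraries were close to each other. The log2 ratio of RpS19b to RpS19a counts was -8.55 and -10.04 in Nup358GLKD and -10.21 and -10.12 in Control, a difference of 0.88. An exact two-sided permutation test gave p = 0.333, the smallest that 2 libraries against 2 allow. That test cannot reach 0.05. Each pair was therefore also entered as 1 unit in limma's diffSplice test, run over the whole table after the values had been seen. Only the RpS19 and RpS10 pairs had both copies past the count filter, RpS10a through its knockdown counts. The RpL22 and RpL37 pairs were thus not tested by diffSplice. The change of RpS19b relative to RpS19a had an adjusted p of 0.608 by diffSplice, where 10.1% of all rows passed. Without Nup358GLKD replicate 2 the relative change was 1.61 (diffSplice adjusted p 0.0142, with 23.1% of all rows passing), and without Nup358GLKD replicate 1 it was 0.13 (diffSplice adjusted p 0.773, with 15.5% passing). Without Control replicate 1 or 2 it was 0.81 or 0.90 (diffSplice adjusted p 0.887 or 0.875, with 0.0248% or 0.0185% passing). The size of the difference in RpS19 balance thus rests on Nup358GLKD replicate 1. Per coding length RpS19a exceeded RpS19b 372-fold and 1040-fold in Nup358GLKD, against 1180-fold and 1110-fold in Control.

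The genes with the smallest distance to RpS19b over the 4 libraries, a choice that fixes their likeness to it, were Sobp with 36.11 and 8.924 CPM in Nup358GLKD and 5.523 and 5.853 CPM in Control, nord, and the Notch target E(spl)mbeta-HLH, at Euclidean distances of 0.12, 0.14 and 0.22 on the log2 scale. Muscle sheath markers were also highest in that library, and the part of this difference in the RpS19b value was not tested. Of the genes on either side of RpS19b, CG13599 had 3.739 and 9.738 CPM in Nup358GLKD and 17.93 and 18.0 CPM in Control (adjusted p 0.11 by edgeR), and CG5854 had 36.8 and 42.31 CPM in Nup358GLKD and 38.04 and 41.21 CPM in Control (adjusted p 0.989). Beyond them, Rpt2, a proteasome subunit gene, had 180.2 and 210.6 CPM in Nup358GLKD and 331.0 and 332.5 CPM in Control and fell (adjusted p 0.0376 by edgeR), and Gdh had 624.5 and 407.0 CPM in Nup358GLKD and 365.0 and 359.1 CPM in Control (adjusted p 0.174). Of these 4 genes, Gdh shared the higher value in Nup358GLKD replicate 1.

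Genes known in the female germline for the timing or silencing of RpS19b were mostly not called. The list held msl-3, Set2, egg, wde, stwl, Nup154 and Nup107, and 2 of 7 fell in the knockdown while 0 rose, with 9.03% of all features called lower. They were egg, the SETDB1 methyltransferase that places H3K9 trimethylation, and wde, its cofactor. The level of egg was 51.89 and 64.23 CPM in the Nup358GLKD libraries and 103.8 and 105.8 CPM in the Control libraries (log2 difference -0.85, adjusted p 0.0398 by edgeR). That of wde was 64.39 and 63.5 CPM in Nup358GLKD and 140.7 and 142.8 CPM in Control (log2 difference -1.15, adjusted p 0.0279 by edgeR). Both were below Control in both knockdown libraries, and their part in the RpS19b level was not tested.

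The RpS10 pair was carried by RpS10b, the X-linked partner, which encodes a protein of the small subunit head. RpS10b had 1943 and 1483 CPM in the Nup358GLKD libraries and 1026 and 1069 CPM in the Control libraries. The groups did not overlap, and the log2 difference of 0.71 (SE 0.18), a fold of 1.64, had an adjusted p of 0.0653 by edgeR and 0.00664 by DESeq2. RpS10a, the intronless copy, had 20 and 11 counts in Nup358GLKD and 5 and 7 counts in Control. The ratio of its counts per depth was 2.77 with an exact 95% interval of 1.38 to 5.92, which covers counting error only; edgeR gave an adjusted p of 0.137 and DESeq2 one of 0.339. RpS10a was 0.0185% and 0.0123% of the pair's counts in Nup358GLKD and 0.00778% and 0.0106% in Control, and its log2 ratio to RpS10b differed by 0.73 (exact permutation p = 0.333, the smallest possible; diffSplice adjusted p 0.833). Per coding length RpS10b exceeded RpS10a 5510-fold and 8270-fold in Nup358GLKD and 13100-fold and 9570-fold in Control.

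Within RpS10b, one transcript row differed much more than the gene. The table holds 4 rows for the gene, and its 4 annotated transcripts share 1 coding structure, so those transcripts differ outside the coding sequence only. The rows were not paired with single annotated transcripts, so where NM_001298516 differs from the other rows is not known here. The row NM_001298516, picked out after its values were seen, had 227.3 and 212.3 CPM in the Nup358GLKD libraries and 6.894 and 28.1 CPM in the Control libraries, a fold of 12.6. It was 11.7% and 14.3% of the gene's counts in Nup358GLKD and 0.672% and 2.63% in Control, with no overlap between the groups. The main row, NM_167668, held 86.1% and 83.9% in Nup358GLKD and 97.8% and 96.0% in Control. In diffSplice, run over 15007 rows, the minor row's log2 change relative to the gene's other rows was 3.29 with an adjusted p of 0.00477, and that of the main row was -1.97 with an adjusted p of 0.0184, where 10.1% of all rows passed in either direction. The call for the minor row was lost without Control replicate 1 (2.22, diffSplice adjusted p 0.251) and without Control replicate 2 (4.24, diffSplice adjusted p 0.102), fits in which 0.0248% and 0.0185% of all rows passed.

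The rest of RpS10b was also higher in the knockdown. Summed without the minor row it had 1716 and 1271 CPM in Nup358GLKD and 1019 and 1041 CPM in Control, a fold of 1.45. Minor rows of the other partners were small and did not pass diffSplice with all 4 libraries. The RpS19a row NM_001298409 was 2.97% and 2.92% of its gene in Nup358GLKD and 1.16% and 1.16% in Control (adjusted p 0.206 by diffSplice). The RpL37-1 row NM_132777 was 7.47% and 6.41% in Nup358GLKD and 4.75% and 4.75% in Control (adjusted p 0.321 by diffSplice). Without Nup358GLKD replicate 1 or 2 both rows passed, with diffSplice adjusted p of 0.0389 or 0.035 for the RpS19a row and 0.0129 or 0.00334 for the RpL37-1 row, where 15.5% or 23.1% of all rows passed. Without either Control library neither row did. These shares are RSEM's division of reads between overlapping transcripts. An exon of CG14220 on the opposite strand overlaps RpS10b, and the strand setting of the counting is not given in the sources used here; CG14220 had 32.46 and 30.61 CPM in Nup358GLKD and 31.32 and 34.09 CPM in Control, and its part in the RpS10b rows was not tested.

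**Figure D3:**
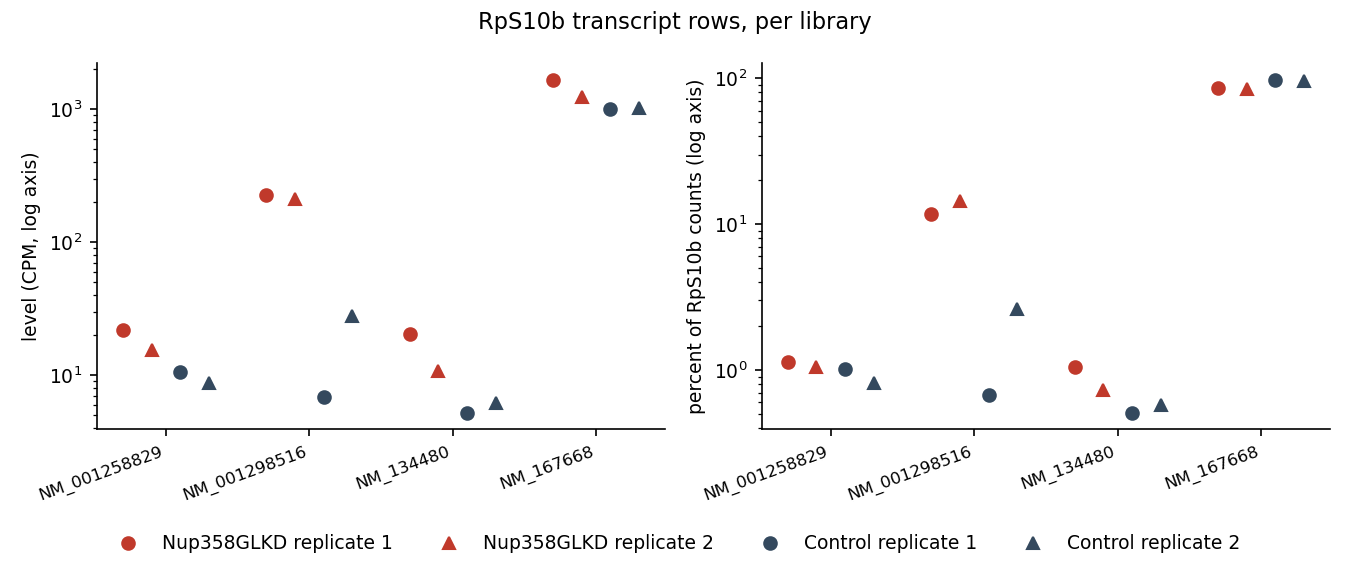
The 4 deposited transcript rows of RpS10b in each library, as CPM on the left and as percent of the gene's counts on the right, both on log axes. The row NM_001298516 is 227.3 and 212.3 CPM in the Nup358GLKD libraries and 6.894 and 28.1 CPM in the Control libraries, while the other 3 rows differ less.

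RpL37-1 was the one paralog that passed the threshold. RpL37 is a small zinc-binding protein of the large subunit. RpL37-1 had 1944 and 1477 CPM in the Nup358GLKD libraries and 836.7 and 843.4 CPM in the Control libraries. The groups did not overlap, and the mean of 1710 ± 330 CPM in Nup358GLKD was 2.04-fold that of 840.1 ± 4.78 CPM in Control (SD, n = 2 each). The log2 difference of 1.03 (SE 0.18) had an adjusted p of 0.0407 by edgeR and 6.1e-05 by DESeq2; without Control replicate 1 or Control replicate 2 it was 0.99 or 1.00 and did not pass, and 0 of all features passed the edgeR test in either fit (1717 and 1550 at an unadjusted p under 0.05). The restricted copy RpL37-2, intronless and known from the testis, had 8 and 2 counts in Nup358GLKD and 3 and 0 counts in Control. The count ratio of 3.57 had an exact interval of 0.92 to 20.2, so no difference was detectable at this depth. RpL37-2 was 0.0074% and 0.00225% of the pair's counts in Nup358GLKD and 0.00572% and 0% in Control, where a count of 0 allows a share of up to 0.00578%. With counts summed per group, the ratio of RpL37-2 to RpL37-1 was 1.76-fold that of Control with an interval of 0.454 to 9.98.

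RpL22 differed between the 2 knockdown libraries. RpL22 binds the 28S ribosomal RNA, and in flies both RpL22 proteins carry an added N-terminal stretch. RpL22 had 1663 and 894.7 CPM in the Nup358GLKD libraries and 935.6 and 823.6 CPM in the Control libraries. The groups overlapped, and the log2 difference of 0.54 (SE 0.34) had an adjusted p of 0.272 by edgeR and 0.212 by DESeq2. It was 0.02 without Nup358GLKD replicate 1 and 0.89 without Nup358GLKD replicate 2. RpL22-like had 7 and 6 counts in Nup358GLKD and 5 and 4 counts in Control, a count ratio of 1.55 with an exact interval of 0.612 to 4.1. The log2 ratio of RpL22-like to RpL22 overlapped between the groups (difference 0.16, exact permutation p = 1.0). Per coding length RpL22 exceeded RpL22-like 13800-fold and 9360-fold in Nup358GLKD and 12200-fold and 13200-fold in Control.

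An RNA that overlaps RpL22 was much higher in the knockdown. The noncoding gene lncRNA:CR42491 shares exon sequence with RpL22 on the same strand, so reads from the shared stretch are divided between them by estimate. It had 410.9 and 264.7 CPM in the Nup358GLKD libraries and 72.87 and 51.68 CPM in the Control libraries. The groups stood far apart, and the log2 difference of 2.44 (SE 0.32), a fold of 5.42, had an adjusted p of 0.0309 by edgeR. Summed with it, in an alternative added after seeing the data, RpL22 had 2074 and 1159 CPM in Nup358GLKD and 1009 and 875.3 CPM in Control, a fold of 1.72, and the groups no longer overlapped. How many of these counts come from the shared stretch was not tested.

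Other genes known from the testis were set beside the testis-known copies. Of 20 such genes, 7 were tested and 0 passed the edgeR test, adjusted or unadjusted, with a median log2 change of -0.66. DESeq2 called 1, lower. Log2 changes of the 7 ran from -1.71 to 0.73. Both Nup358GLKD libraries stood below both Control libraries in 5 of them and above in 0, against 39.8% and 37.9% of all features. Summed, the 20 genes had 41.85 and 111.9 CPM in the Nup358GLKD libraries and 179.3 and 199.6 CPM in the Control libraries. Of them nht, Mst84Da and Mst98Ca were at 0 in every library. The 3 testis-known paralogs held between 0 and 20 counts in any library, too few to follow with precision.

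The partners were set beside the 69 single-copy ribosomal protein genes. Of these 6 were called higher and 0 lower by edgeR, against 9.59% of all features called higher and 9.03% lower, and DESeq2 called 58 higher, against 19.0% of all features. Their median log2 difference was 0.68. In 63 of 69 both Nup358GLKD libraries stood above both Control libraries, against 37.9% of all features, while the mean of sta, RpS2 and RpLP0 was below that of Control, at 0.862-fold, 0.947-fold and 0.885-fold. The 3 with the lowest p were RpL14, RpS27 and RpL37A, at 1.98-fold, 1.83-fold and 1.81-fold with adjusted p of 0.04, 0.0432 and 0.0443 by edgeR. The log2 level over the Control mean had a median over these genes of 0.85 in Nup358GLKD replicate 1 and 0.47 in replicate 2. RpL37-1 was above all 69 in both knockdown libraries, at 1.21 and 0.81. RpS19a was above 53 and 59, and RpS10b, near the middle, above 41 and 38. RpL22 was above 44 in replicate 1 and 7 in replicate 2. These places describe 2 libraries and carry no test.

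Since the partners are X-linked, the single-copy genes were also split by chromosome. The 6 on the X had a median log2 difference of 0.65 (range -0.21 to 0.82, 0 called by edgeR, 5 at an unadjusted p under 0.05 and 5 called by DESeq2). The 63 autosomal genes had a median of 0.68 (range -0.18 to 0.98, 6 called by edgeR, 53 at an unadjusted p under 0.05 and 53 called by DESeq2). Over all features 45.2% had an unadjusted p under 0.05. RpL37-1, at 1.03, was above both ranges.

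**Figure D4:**
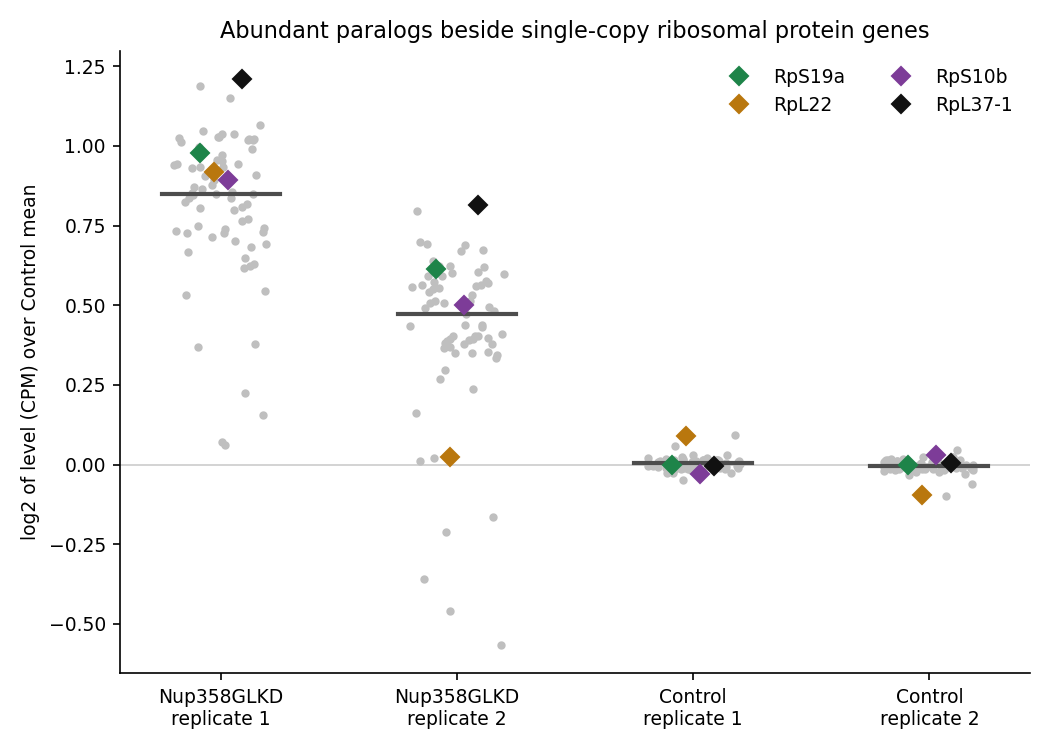
Log2 of the level in each library over the Control mean for the 4 abundant paralogs (diamonds) and 69 single-copy ribosomal protein genes (grey points, spread sideways for clarity), with the median of the single-copy genes as a bar. RpL37-1 is above all 69 in both Nup358GLKD libraries, and RpL22 changes place between them.

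Other duplicated ribosomal protein families held pairs with a rare second copy and pairs with 2 expressed copies. Of their 11 genes 8 were tested and 0 passed by edgeR, while 5 had an unadjusted p under 0.05, against 45.2% of all features. DESeq2 called 4 of the 8 higher, against 19.0% of all features. Both knockdown libraries were above both Control libraries in 8 of 8, against 37.9% of all features, and the median log2 difference was 0.58. RpS14a had 1387 and 1038 CPM in the Nup358GLKD libraries and 845.7 and 839.9 CPM in the Control libraries (adjusted p 0.109 by edgeR), and RpS14b had 205.9 and 176.4 CPM in Nup358GLKD and 162.9 and 160.2 CPM in Control (adjusted p 0.196). RpS15Aa had 2098 and 1680 CPM in Nup358GLKD and 1168 and 1150 CPM in Control (adjusted p 0.057), and its intronless copy RpS15Ab had 43.97 and 44.06 CPM in Nup358GLKD and 37.27 and 36.42 CPM in Control (adjusted p 0.155). RpS15Ab was the intronless copy with the highest level. RpS28b had 1514 and 1187 CPM in Nup358GLKD and 844.4 and 822.7 CPM in Control (adjusted p 0.0605 by edgeR), while RpS28a had 1 and 2 counts in Nup358GLKD and 4 and 2 in Control, and RpS28-like had 2 and 1 counts in Nup358GLKD and 0 and 0 in Control. RpL10Ab had 2124 and 1546 CPM in Nup358GLKD and 1520 and 1468 CPM in Control (adjusted p 0.302 by edgeR), and RpL10Aa was at 0 in all 4 libraries. RpL34b and RpL34a were both abundant: RpL34b had 1131 and 852.8 CPM in Nup358GLKD and 609.6 and 620.3 CPM in Control (adjusted p 0.0676), and RpL34a had 386.3 and 299.3 CPM in Nup358GLKD and 218.8 and 221.2 CPM in Control (adjusted p 0.0641). Over both sets of families the 5 copies with a single exon had between 0 and 44.06 CPM in any library.

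Nearly all counts of each pair belonged to the partner copy. In every pair and library the restricted copy held at most 0.266% of the counts, the share of RpS19b in Nup358GLKD replicate 1. Similar paralogs can exchange reads in estimated counts. For RpS19b, RpL22-like, RpS10a and RpL37-2 all deposited values were whole numbers, whereas those of the abundant copies were not all whole. Summed per gene, RpS19a, RpS10b and RpL37-1 were whole or nearly so, as with 108126.0 and 88899.0 for RpL37-1 in Nup358GLKD. RpL22, a gene of 1 row, had 92541.08 and 53841.57 in those libraries.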

How the data were processed

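The authors deposited one table of expected counts, estimates for each transcript that may hold fractions of a read. Bowtie2, RSEM and genome build dm3 are named, per the submitters' processing notes. The sources used here do not give versions, annotation, strand setting or filters. Rows were added up by gene through NCBI's RefSeq list of assembly Release 6, used for names only, which matched 34035 of 34437 rows (98.8%) to 16356 genes, and were rounded. 1 germline marker, nos, is not analysed here. Chromosome arms, exons and coding lengths come from the BDGP6 annotation, and no coordinates are given.

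The test was edgeR 4.0.16's quasi-likelihood F-test (robust=TRUE, TMM factors, minimum count 10 and total 15, R 4.3.3) on group, over 10191 features, with Benjamini-Hochberg adjustment and a threshold of 0.05. CPM use TMM-scaled library sizes. DESeq2 1.42.0, limma-voom (limma 3.58.1), other scalings and filters, unsummed rows, omission of each library and a block on replicate number were alternatives; diffSplice was added after seeing the data. Totals were 58876800 and 60707552 expected counts in Nup358GLKD and 60792292 and 59410221 in Control, and 3 counts serve as the floor for a count of 0. Counts of the 2 replicates differed beyond sampling error in each group (chi-square over degrees of freedom 362.4 in Nup358GLKD and 15.8 in Control), so all 4 were kept. The code was tested on simulated data.

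1 further pair is not reported here, and the counts of paralogs leave it out. The members and gene lists were chosen with earlier results of these data known. Named genes are all members, Nup358, the other duplicated ribosomal protein genes, from every list at most 3 called genes (lowest p first), and for RpS19b and RpL22-like the 3 genes of at least 5 mean CPM with the smallest Euclidean distance over the libraries between log2 CPM centred on Control. RpL22-like was not tested, so none are named for it. The RpL22 overlap, the RpS10b row and the neighbouring genes were picked after their values were seen.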

Additional observations from a re-analysis of the deposited data

How the results depend on the processing

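With 2 libraries a group and uneven knockdown replicates, calls depended on the method more than directions did. In 1 alternative the 2 copies of each pair were summed. Its values for RpS19b and RpS10a are those of the pair, almost all partner counts, and are included in the next figures. Over 94 values of the tested members under the alternatives, 0 reversed in direction, 79 kept direction and call, 12 passed where the reported value had not, and 3, all for RpL37-1, no longer passed. Of the 6 tested paralogs, 1 was called by edgeR, 2 with total-count scaling, 4 by DESeq2, 2 by limma-voom and 0 on unsummed transcript rows (2 at an unadjusted p under 0.05); leaving out each library in turn gave 0 to 6, with 3 without Nup358GLKD replicate 1, 6 without Nup358GLKD replicate 2, and 0 without Control replicate 1 or 2 (0 unadjusted in either). Of all features, 1897 were called by edgeR, 3876 by DESeq2, 1 on unsummed rows (7024 unadjusted), and 0 to 8007 when each library was left out: 6505 without Nup358GLKD replicate 1, 8007 without Nup358GLKD replicate 2, and 0 without Control replicate 1 or 2 (1717 and 1550 unadjusted). A group left with 1 library takes its spread from the other group.

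Same-numbered libraries did not deviate together (correlation 0.08), so the numbers were not taken to pair them. With a replicate block, 1 paralog and 2388 features were called. Under the block the ratio difference was 0.88 for RpS19b to RpS19a and 0.73 for RpS10a to RpS10b, as without it. Exact permutation within the block gave p = 0.5 for each, the smallest it allows, so it cannot decide.

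Leaving out each library in turn moved the ratio difference between 0.13 and 1.62 for RpS19b to RpS19a and 0.44 and 1.02 for RpS10a to RpS10b. In diffSplice the relative change of RpS19b then passed at 1.607, without Nup358GLKD replicate 2. The rarest copies gave no stable ratio: the RpL22-like to RpL22 difference of 0.16 was -0.097 with 5 added to each count and ranged from -0.118 (without Nup358GLKD replicate 2) to 0.441, and the RpL37-2 to RpL37-1 value of 0.82 was -0.318 with 5 added, -0.355 without Nup358GLKD replicate 1, -0.173 without Control replicate 2 and 1.363 without Nup358GLKD replicate 2; without Control replicate 1 no value could be had. The use of the minor RpS10b row stayed high but was no longer called without Control replicate 1 (2.216) or 2 (4.24), with a range of 2.216 to 4.24. The cause was not tested. Upper-quartile scaling moved the median of all features by 0.12 on the log2 scale and the filter at a mean of 5 CPM by 0.15, both upwards, and the 6 tested members under the first and the 4 tested under the second remained higher. Counts of 0 to 20 per library limit RpL22-like, RpS10a and RpL37-2.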

Other observations

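The 2 nearest annotated genes on either side of each paralog were also read, and those named here were picked after their values were seen. Around RpL22, on the X chromosome, CG5273 and snoRNA:Psi18S-531 passed the edgeR threshold, as did 18.6% of all features. lncRNA:CR42491, which shares exon sequence with RpL22, also passed. So did lncRNA:CR44965, which entered the test only through its knockdown counts. These calls are therefore not 4 separate tests. Beside lncRNA:CR42491, the small nucleolar RNA gene snoRNA:Psi18S-531 had 67.34 and 38.4 CPM in the Nup358GLKD libraries and 4.437 and 3.154 CPM in the Control libraries, a fold of 13.9 with an adjusted p of 0.0279 by edgeR. Its reads come from poly(A)-enriched RNA and need not be the mature small RNA. On the other side, lncRNA:CR44965 had 21 and 20 counts in Nup358GLKD and 1 and 0 counts in Control, a ratio of 44.0 with an exact 95% interval of 7.46 to 1780. CG5273 had 23.03 and 25.03 CPM in Nup358GLKD and 56.73 and 54.56 CPM in Control, and fell 2.32-fold (adjusted p 0.0279 by edgeR).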
